A study of Mus musculus with 15 samples.

Results

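Hypoxic ischemia, the combined loss of oxygen and blood flow, was compared with sham surgery in mouse forebrain, with vehicle in both arms. The comparison used 5 arrays labelled VEH-HI (6 to 10) and 5 labelled VEH-Sham (1 to 5), which are 10 of the 15 arrays of the series. Every sample was total RNA of forebrain, and every animal had a vehicle injection 1 h before its procedure, per the labels. The other 5 arrays, EPO-HI 11 to 15, came from mice given erythropoietin into the peritoneum at 5 U per g at the same interval before hypoxic ischemia. They entered the fit for the spread between arrays and are not described here. The sources used here do not give genotype, strain, age, sex, the interval from injury to tissue collection, the number of animals behind a sample or the array batches. The labels do not state that samples are separate animals, so the spread behind each p-value is that between these samples and may be technical.

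Hypoxic ischemia starves neurons of energy, and the excess glutamate that follows kills part of them. Over the next hours and days surviving neurons and glia switch on stress genes, microglia and invading blood cells clear debris, and astrocytes and vessel cells rebuild the matrix around the lesion. Cells that take up dying tissue must also handle its lipids, metals and proteins. The inflammatory side of this response is well known, and the accounts below turn to the genes beside it.

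Each gene is represented by its brightest probe set with a single symbol, on the scale log2(intensity + 16), and a difference is VEH-HI minus VEH-Sham on that scale. A gene is said to rise or fall where limma, fitted over all 27022 tested probe sets, gave a Benjamini-Hochberg adjusted p under 0.05. VEH-Sham 1 to 4 had array medians of 55.3 to 57.9 intensity units, above those of VEH-Sham 5 (39.8) and of the VEH-HI arrays (40.8 to 44.4). Control probes at the 3' and 5' ends of Gapdh, whose signal ratio tracks RNA integrity, gave ratios of 0.634 to 0.719 in VEH-Sham 1 to 4, 0.732 in VEH-Sham 5 and 0.719 to 0.756 in VEH-HI. The same ratio for Actb ran from 1.283 to 1.399 in VEH-Sham 1 to 4 and from 1.252 to 1.464 in VEH-HI. It was 1.365 in VEH-Sham 5, so Actb did not set VEH-Sham 1 to 4 apart. Because of the array medians, differences are given also against VEH-Sham 5 alone. A gene is called clear of VEH-Sham 5 where that array lay beyond all 5 VEH-HI arrays on the side of the call, which is a description and not a test.

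The gap between VEH-Sham 1 to 4 and the VEH-HI arrays depended on how bright a gene was. In the dimmest decile of the 13168 tested genes the median difference of VEH-HI from VEH-Sham 1 to 4 was -0.40, and in the brightest decile it was 0.16. Against VEH-Sham 5 the medians of the 10 deciles stayed between -0.03 and 0.03. Calls followed the same slope, with 19.9% of the dimmest decile lower and 3.5% higher, against 7.3% and 28.8% of the brightest. VEH-Sham 5 itself differed from VEH-Sham 1 to 4 by -0.42 in the dimmest decile and 0.18 in the brightest. This last slope lay between arrays that all carry the sham label. Whether arrays were processed in batches is not given. Where VEH-HI is compared with VEH-Sham 1 to 4, an array effect and hypoxic ischemia cannot be told apart.

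**Figure D1:**
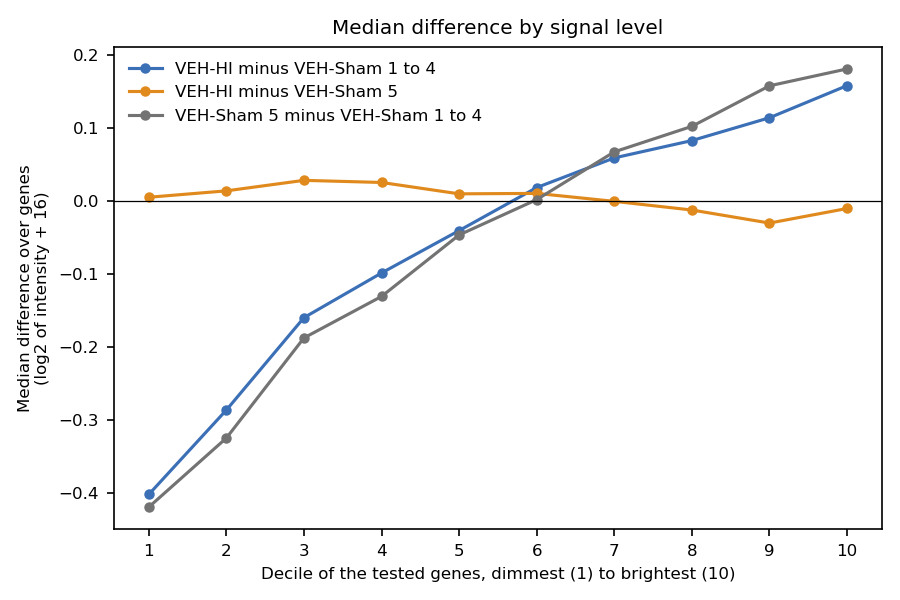
Median log2 difference over genes (vertical axis) in each decile of the 13168 tested genes, ordered from dimmest to brightest (horizontal axis). The difference of VEH-HI from VEH-Sham 1 to 4 climbs from -0.40 to 0.16, the difference of VEH-Sham 5 from VEH-Sham 1 to 4 climbs alike, and the difference of VEH-HI from VEH-Sham 5 stays within 0.03 of 0.

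Forebrain markers gave signal on every array, and so did some genes of other brain regions. The cortical transcription factor gene Neurod6 stood at intensities of 1304 to 3077 over the 10 arrays, Tbr1 at 185 to 318, the striatal peptide gene Penk at 413 to 655, Slc17a7 at 88.9 to 217 and Ppp1r1b at 120 to 288. Of the genes that mark hindbrain, cerebellum or spinal cord, Hoxb5 stayed at or below 5.89 and Gabra6 at or below 44.0, whereas Hoxa5 gave 218 to 315 and the cerebellar Cbln1 327 to 436. Levels of different probe sets cannot be ranked, so these values describe the markers and do not settle the region.

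Transcripts tied to the sex chromosomes set 1 array apart. Xist, made by the inactive X chromosome, had an intensity of 1.49 in VEH-HI 6, 457 to 788 in the other VEH-HI arrays and 250 to 427 in the VEH-Sham arrays. Y-linked Eif2s3y gave 481 in VEH-HI 6 and 102 to 324 in the other 9 arrays. Uty gave 38.4 to 138 and Kdm5d 27.4 to 87.7, in some arrays below the array median. Signal of Xist and Eif2s3y thus occurred together in 9 of 10 arrays. The sources used here do not say whether a sample pools several animals. None of the 4 sex-specific transcripts tested passed limma between the groups. Counts of more than 2 called genes that VEH-HI 6 moved by over 1.5 times are given without it as well. Counts of 1 or 2 genes also moved, and these are mostly not repeated. Falls of heat shock genes went from 2 to 1 and those of growth factor feedback genes from 1 to 2. Of the 184 named genes with a call, 42 lost it without 1 or more of the 10 arrays, 26 of them without VEH-HI 6 and 2 without VEH-Sham 5.

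In total 1573 genes, 11.9% of those tested, were higher after hypoxic ischemia and 1510, or 11.5%, were lower. Without VEH-HI 6 these counts were 1157 and 1132. Of the higher genes 723 (45.96% of them and 5.49% of all tested genes) were clear of VEH-Sham 5. In 832 others VEH-Sham 5 lay inside the VEH-HI range and in 18 it lay beyond the far side. Of the lower genes 577 (38.21%, and 4.38% of all tested genes) were clear of VEH-Sham 5. The median rise went from 0.47 to 0.19 and the median fall from -0.58 to -0.19 when VEH-Sham 5 alone was the control. The median over all tested genes was -0.02 against all VEH-Sham and 0.0026 against VEH-Sham 5.

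The control arrays decided much of these totals. Genes called lower numbered 914, 995, 877 and 881 without VEH-Sham 1, 2, 3 or 4 in turn and 2484 without VEH-Sham 5, and genes called higher numbered 1037 without VEH-Sham 4. With VEH-Sham 5 as the sole control, which leaves 1 control array, almost no probe set passed limma. Those that did were higher, and they are named here after their values were seen. They were Mnt, a repressor that pairs with Max (1.59), and the unnamed 1442622_at (1.67) and 1449254_at (3.99). The direction of calls also moved with scaling. Of all calls on probe sets 43.1% were higher as deposited, 53.3% after quantile normalization and 85.6% with equal array medians, which lifted the median difference over all probe sets from -0.06 to 0.18. Of 165 well-known inflammatory genes, which were counted and not described, 114 were tested. Of these 55 rose and 5 fell (48 and 1 clear of VEH-Sham 5), and their median difference was 0.50, or 0.67 against VEH-Sham 5. Without VEH-HI 6, 34 rose and the median was 0.42. The falls numbered 3 without VEH-Sham 4 and 10 without VEH-Sham 5.

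**Figure D2:**
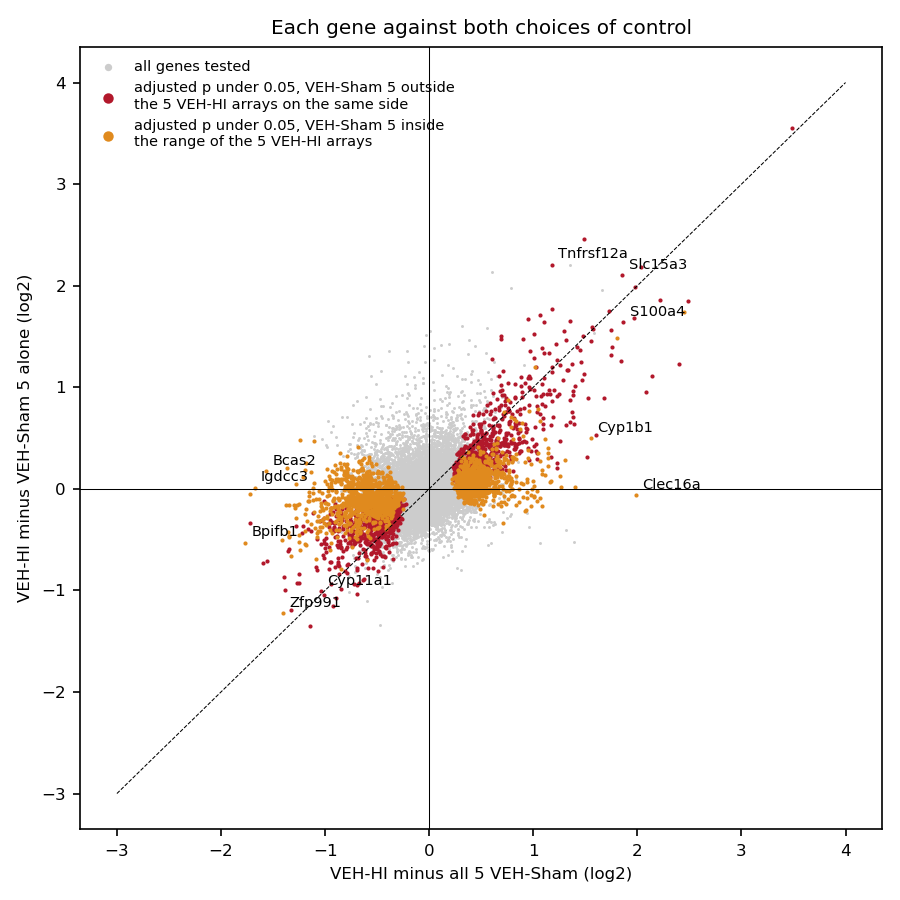
Each of the 13168 tested genes by its log2 difference from all 5 VEH-Sham arrays (horizontal axis) and from VEH-Sham 5 alone (vertical axis), with the dashed line marking equal values. Genes with a limma adjusted p under 0.05 are red where VEH-Sham 5 lay outside the VEH-HI range on the same side and orange where it lay inside. S100a4 and Slc15a3 sit near the dashed line, while Clec16a and Igdcc3 sit at -0.06 and 0.01 on the vertical axis.

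Outside the inflammatory list, the 24 largest rises with the same direction against both controls were described one by one. They were ranked by the smaller of the 2 differences, so their size against VEH-Sham 5 is part of how they were chosen. With VEH-Sham 5 as the sole control 0 of the 24 passed limma, and in 1 of them, Fos, VEH-Sham 5 lay inside the VEH-HI range. Their VEH-Sham means ran from 4.48 to 9.35, and 18 of the 24 had no overlap between the 5 VEH-HI and the 5 VEH-Sham arrays. The same held for 558 of all 1573 genes called higher, out of 13168 tested, and the 24 were chosen for large differences. VEH-HI 6 was the highest VEH-HI array for 19 of the 24 and VEH-HI 10 the lowest for 17. The median of the 24 above VEH-Sham 5 was 2.04 in VEH-HI 6, 1.37 in VEH-HI 7, 1.63 in VEH-HI 8, 1.28 in VEH-HI 9 and 0.85 in VEH-HI 10. Without VEH-HI 6, 22 of the 24 kept their call, and Tgm2 and Tnfrsf12a did not. In bulk tissue more cells of a type and more RNA per cell cannot be told apart, and this holds for every rise and fall below. Many of these genes are made by macrophages as well as by brain cells. The inflammatory genes rose beside them in the counts given above, and their part in the 24 rises was not tested.

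Metallothioneins, small cysteine-rich proteins that bind zinc and copper, rose strongly. Mt1 stood at 9.40, 9.17, 9.05 and 9.20 in VEH-Sham 1 to 4, 9.93 in VEH-Sham 5, and 11.68, 10.53, 11.18, 11.80 and 10.75 in VEH-HI 6 to 10. Mt2 stood at 9.02, 9.41, 9.02 and 9.11 in VEH-Sham 1 to 4, 9.59 in VEH-Sham 5, and 11.38, 10.52, 11.38, 11.20 and 10.44 in VEH-HI 6 to 10. In both genes every VEH-HI array lay above every VEH-Sham array, with VEH-Sham 5 the highest of the sham arrays. Mt1 rose by 1.84 (SE 0.24, limma adjusted p = 0.000154) and Mt2 by 1.75 (SE 0.23, limma adjusted p = 0.000144), and they were 1.26 and 1.39 above VEH-Sham 5. Mt3, the brain form, went from 9.81 ± 0.32 to 10.80 ± 0.29 (SD, n = 5 each), a rise of 0.99 (SE 0.14, limma adjusted p = 0.000414) that was 0.49 against VEH-Sham 5.

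Metallothionein genes such as Mt1 and Mt2 are switched on by metal-bound MTF1 at metal response elements. Their core is TGCRCNC, with R for A or G. The pattern searched here, TGCNCNC, is wider and allows any base at R, and the Mt3 match has T there. That pattern, on either strand, was in the 250 bases before the start of 3 of 3 metallothionein genes with a promoter. It was also in 47.2% of all genes and 44.41% of all 32851 RefSeq promoters searched. Each promoter entry held 300 bases, 250 before the start and 50 after. The stretches below are shown because the 3 genes rose together. Each is from RefSeq on GRCm38.p6, plus strand, with TGCNCNC or its reverse complement in capitals. Mt1 is chr8:94179029-94179088, Mt2 is chr8:94172368-94172617 and Mt3 is chr8:94152357-94152416.
Mt1: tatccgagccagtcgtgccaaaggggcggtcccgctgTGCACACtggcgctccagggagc
Mt2: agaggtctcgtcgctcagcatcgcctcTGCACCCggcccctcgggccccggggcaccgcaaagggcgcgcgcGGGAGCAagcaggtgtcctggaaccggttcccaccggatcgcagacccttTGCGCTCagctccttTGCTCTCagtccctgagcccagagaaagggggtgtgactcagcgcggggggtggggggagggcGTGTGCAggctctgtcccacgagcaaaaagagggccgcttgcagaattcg
Mt3: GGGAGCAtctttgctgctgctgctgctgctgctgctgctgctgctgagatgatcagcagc
Over the full 250 bases Mt2 held 5 matches and Mt1 and Mt3 held 1 each, while shorter stretches are printed for Mt1 and Mt3. A match is a description of letters and not a bound site.

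Among genes of lipid storage and acid compartments the largest rises were Plin2 and Slc15a3. Plin2, the coat protein of lipid droplets, stood at 7.52, 7.65, 7.70 and 7.86 in VEH-Sham 1 to 4, 7.65 in VEH-Sham 5, and 9.97, 9.20, 9.31, 8.92 and 8.35 in VEH-HI 6 to 10. All VEH-HI arrays were above all sham arrays, and VEH-Sham 5 lay among the other sham arrays. The rise of Plin2 was 1.47 (SE 0.24, limma adjusted p = 0.000876), and 1.502 against VEH-Sham 5. Slc15a3, a peptide and histidine transporter of the lysosome membrane, stood at 4.36, 4.73, 4.57 and 4.64 in VEH-Sham 1 to 4, 4.27 in VEH-Sham 5, and 7.22, 6.49, 6.00, 6.27 and 5.88 in VEH-HI 6 to 10. It rose by 1.86 (SE 0.29, limma adjusted p = 0.000652) and was 2.10 above VEH-Sham 5, without overlap between groups. Ctsz, a lysosomal carboxypeptidase, rose by 1.29 (SE 0.16, limma adjusted p = 8.17e-05) and was 1.08 above VEH-Sham 5, and both other tested probe sets agreed in sign.

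Genes of calcium binding and cell shape formed another block. S100a4, a calcium-binding protein of motile cells, stood at 5.78, 5.35, 6.66 and 6.44 in VEH-Sham 1 to 4, 6.34 in VEH-Sham 5, and 8.33, 8.05, 7.87, 8.16 and 7.48 in VEH-HI 6 to 10. VEH-HI 10 was the lowest injured array and still above every sham array. The rise was 1.87 (SE 0.23, limma adjusted p = 7.98e-05), and 1.64 against VEH-Sham 5. Its relative S100a6 rose by 1.38 (SE 0.19, limma adjusted p = 0.000231) and Capg, which caps the ends of actin filaments, by 1.08 (SE 0.23, limma adjusted p = 0.00394). They were 1.23 and 1.03 above VEH-Sham 5.

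Lama4, the laminin chain of small-vessel basement membranes, stood at 5.18, 4.95, 5.15 and 4.98 in VEH-Sham 1 to 4, 5.09 in VEH-Sham 5, and 7.09, 6.38, 6.44, 6.27 and 6.25 in VEH-HI 6 to 10. The sham arrays lay within a narrow band and VEH-HI 6 stood above the other 4 injured arrays. The rise was 1.42 (SE 0.17, limma adjusted p = 7.98e-05), and 1.39 against VEH-Sham 5. Lgals1, the glycan-binding galectin-1, rose by 1.46 (SE 0.16, limma adjusted p = 2.96e-05) and was 1.07 above VEH-Sham 5. Tgm2, which cross-links proteins, stood at 6.48, 6.19, 6.24 and 6.48 in VEH-Sham 1 to 4, 6.09 in VEH-Sham 5, and 8.48, 7.54, 8.48, 6.59 and 6.46 in VEH-HI 6 to 10. Its injured arrays were split, with VEH-HI 6 and 8 high and VEH-HI 9 and 10 among or near the sham values. The rise was 1.21 (SE 0.36, limma adjusted p = 0.0206), and 1.42 against VEH-Sham 5. It was lost without VEH-HI 6 or without VEH-HI 8, and 3 of its 4 other probe sets shared the direction. Tnfrsf12a, the receptor for the cytokine TWEAK, rose by 1.18 (SE 0.34, limma adjusted p = 0.0176) with overlapping groups and was 2.21 above VEH-Sham 5, the lowest sham array. Ctla2a, an inhibitor of cathepsin-like cysteine proteases, rose by 1.11 (SE 0.31, limma adjusted p = 0.0156), also with overlap, and was 1.33 above VEH-Sham 5. The call of Tnfrsf12a was lost without VEH-HI 6.

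Sensors and interferon-induced genes outside the usual lists were among the clearest. Pycard, the adaptor that links inflammasome sensors to caspase-1, stood at 6.58, 6.20, 6.52 and 6.36 in VEH-Sham 1 to 4, 6.64 in VEH-Sham 5, and 8.84, 8.35, 8.14, 8.24 and 7.49 in VEH-HI 6 to 10. The lowest injured array was above the highest sham array. Its rise was 1.75 (SE 0.19, limma adjusted p = 2.75e-05), and 1.57 against VEH-Sham 5. Ifi202b, an interferon-induced DNA-binding protein, stood at 4.48, 4.53, 4.24 and 4.39 in VEH-Sham 1 to 4, 4.77 in VEH-Sham 5, and 7.46, 6.85, 6.96, 5.58 and 5.41 in VEH-HI 6 to 10. Sham arrays were close together near the bottom of the scale, and the injured arrays spread over more than the distance between VEH-HI 10 and VEH-Sham 5. The rise was 1.97 (SE 0.42, limma adjusted p = 0.00363), and 1.68 against VEH-Sham 5. Ifitm1, an interferon-induced membrane protein, rose by 1.36 (SE 0.21, limma adjusted p = 0.000487), and P2ry6, the receptor for UDP that drives uptake of debris by microglia, by 1.18 (SE 0.24, limma adjusted p = 0.00319). They were 1.65 and 1.77 above VEH-Sham 5.

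Of the transcription regulators among the 24, Cebpd rose in every injured array and Fos and Atf3 did not. Cebpd, an acute-phase factor, stood at 6.23, 6.29, 5.90 and 5.91 in VEH-Sham 1 to 4, 6.62 in VEH-Sham 5, and 9.06, 7.99, 8.37, 7.47 and 6.81 in VEH-HI 6 to 10. Its rise was 1.75 (SE 0.32, limma adjusted p = 0.00165), and 1.32 against VEH-Sham 5, without overlap. Fos, the immediate early AP-1 subunit, stood at 7.25, 7.12, 6.99 and 6.96 in VEH-Sham 1 to 4, 7.48 in VEH-Sham 5, and 10.22, 9.07, 9.96, 8.14 and 7.40 in VEH-HI 6 to 10. VEH-HI 6, 7 and 8 were high, while VEH-HI 10 lay below VEH-Sham 5. Fos rose by 1.80 (SE 0.43, limma adjusted p = 0.00677), or 1.48 against VEH-Sham 5. Atf3, a stress-induced partner of AP-1, rose by 1.15 (SE 0.30, limma adjusted p = 0.0117) with overlap, and Ier3, an immediate early survival gene, by 1.48 (SE 0.31, limma adjusted p = 0.00346) without it. They were 1.34 and 1.13 above VEH-Sham 5.

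The last 3 rises were enzymes or little-studied genes. Akr1b8, an aldo-keto reductase, rose by 1.25 (SE 0.23, limma adjusted p = 0.0017) and Renbp, an epimerase of amino sugar metabolism, by 1.03 (SE 0.20, limma adjusted p = 0.00242). Rhbdd3, a member of the rhomboid family, rose by 1.18 (SE 0.26, limma adjusted p = 0.004) with overlap. They were 1.22, 1.20 and 1.20 above VEH-Sham 5.

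**Figure D3:**
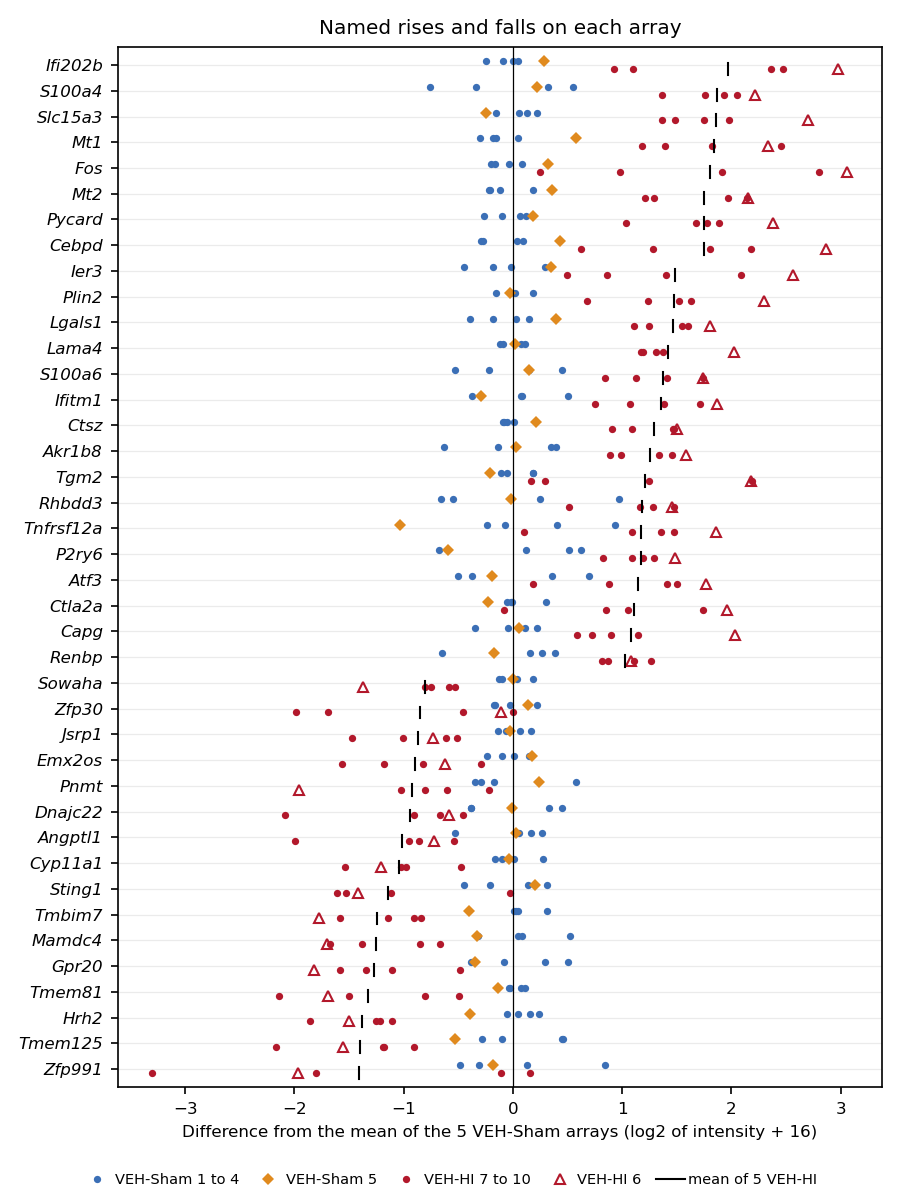
The 24 named rises and 16 named falls, with each array as its log2 difference from the mean of the 5 VEH-Sham arrays (horizontal axis). Blue circles are VEH-Sham 1 to 4, orange diamonds VEH-Sham 5, red circles VEH-HI 7 to 10, open triangles VEH-HI 6 and black ticks the VEH-HI mean. VEH-HI 6 is the highest VEH-HI array in 19 of the 24 rises.

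The 16 named falls were smaller and came from dim genes. By their mean over arrays all 16 lay below the median of the tested genes (7.51), with VEH-Sham means of 6.13 to 7.60, and differences ran from -1.40 to -0.81. In 12 of 16 the groups did not overlap, as in 460 of all 1510 genes called lower, out of 13168 tested. The 16 were chosen for large differences. Detection calls were not used here, so the lower end of the scale is not shown to be a true absence. Quantile normalization left 11 of the 16 calls and equal array medians 12, and all 16 kept their direction under both.

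Hrh2, the histamine H2 receptor, stood at 6.52, 6.61, 6.31 and 6.41 in VEH-Sham 1 to 4, 5.98 in VEH-Sham 5, and 4.87, 5.15, 5.12, 4.51 and 5.26 in VEH-HI 6 to 10. All injured arrays were below all sham arrays, with VEH-Sham 5 the lowest sham array. It fell by 1.38 (SE 0.24, limma adjusted p = 0.00113), and the difference from VEH-Sham 5 was -0.99. Cyp11a1, which makes the first cut in steroid hormone synthesis, stood at 6.64, 7.02, 6.57 and 6.75 in VEH-Sham 1 to 4, 6.71 in VEH-Sham 5, and 5.53, 5.76, 6.26, 5.72 and 5.20 in VEH-HI 6 to 10. It fell by 1.04 (SE 0.20, limma adjusted p = 0.00191), and was at -1.01 against VEH-Sham 5. Sting1, the adaptor of cytosolic DNA sensing, stood at 5.97, 6.73, 6.55 and 6.20 in VEH-Sham 1 to 4, 6.62 in VEH-Sham 5, and 4.99, 4.89, 4.80, 6.38 and 5.29 in VEH-HI 6 to 10. In 4 injured arrays it was low and in VEH-HI 9 it was among the sham values. It fell by 1.14 (SE 0.30, limma adjusted p = 0.0107), and was at -1.35 against VEH-Sham 5.

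Gpr20, an orphan receptor, was at -1.27 (limma adjusted p = 0.00267), and Pnmt, the enzyme that makes adrenaline from noradrenaline, at -0.92 with overlap (limma adjusted p = 0.0254). Against VEH-Sham 5 they were at -0.92 and -1.16. Without VEH-HI 6 or without VEH-Sham 2 the call of Pnmt was lost. Angptl1, a secreted relative of the angiopoietins, was at -1.01 and -1.05 against all VEH-Sham and VEH-Sham 5, and Emx2os, the antisense transcript of the cortical factor gene Emx2, at -0.90 and -1.08. The membrane protein genes Tmem81, Tmem125, Tmbim7 and Mamdc4 were at -1.33 and -1.19, -1.40 and -0.87, -1.25 and -0.84, and -1.25 and -0.92 in the same order of controls. Jsrp1 and Sowaha were at -0.87 and -0.84 and at -0.81 and -0.81. Dnajc22 (-0.94 and -0.93) and the zinc finger genes Zfp30 (-0.85 and -0.99) and Zfp991 (-1.40 and -1.22) were the least firm, since each lost its call without 1 of several arrays. Zfp991 also had VEH-Sham 5 inside the VEH-HI range, and 1 of its 2 other probe sets went the other way.

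Promoters of the 24 rises and 16 falls were searched for 3 elements of injury-induced factors, on both strands. Of 18 rises with a promoter, 2 held the AP-1 element TGANTCA (Mt2 and Ctla2a), 2 the STAT element TTCNNNGAA (Ifi202b and Ctla2a) and 0 the cyclic AMP response element TGACGTCA. Of 8 falls with a promoter 0 held any of the 3. Over all genes with a promoter the shares were 7.82%, 8.13% and 1.77%, and over all 32851 promoters 6.75%, 7.02% and 1.55%. A missing match says only that the letters are not in the window.

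Genes of cholesterol synthesis had the largest share of falls among the 44 lists described. Cholesterol is built from acetyl groups through mevalonate, farnesyl units and squalene, under the control of SREBP2 and its retention factors INSIG. Of 20 tested genes of sterol synthesis and uptake 15 fell and 0 rose, against the 11.5% of all tested genes called lower, and all 15 were clear of VEH-Sham 5. The median of the 20 was -0.44, and -0.67 against VEH-Sham 5. It was -0.49 after quantile normalization (16 falls) and -0.20 with equal array medians, where 4 fell. Without VEH-HI 6 the count of falls went from 15 to 8, with a median of -0.38, and without VEH-HI 9 it was also 8. Equal array medians add about 0.24 to every gene, here and in the lists below. Calls of those lists stand beside 11.9% of all tested genes called higher and 11.5% called lower. These shares are over all levels of brightness. By decile they ran from 3.5% to 28.8% higher and from 6.0% to 20.4% lower. Clear of VEH-Sham 5 were 5.49% and 4.38% of all tested genes.

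Individual enzymes showed the spread between arrays. Cyp51, which removes a methyl group from lanosterol, stood at 9.55, 9.68, 9.72 and 9.81 in VEH-Sham 1 to 4, 9.76 in VEH-Sham 5, and 8.87, 9.12, 9.35, 9.08 and 9.09 in VEH-HI 6 to 10. It fell by 0.60 (SE 0.09, limma adjusted p = 0.00061), and both other probe sets shared its direction. Nsdhl, an enzyme of the same demethylation, stood at 9.62, 9.77, 9.50 and 9.63 in VEH-Sham 1 to 4, 10.06 in VEH-Sham 5, and 8.92, 9.00, 9.29, 8.82 and 9.11 in VEH-HI 6 to 10. It fell by 0.69 (SE 0.11, limma adjusted p = 0.000887). In both genes every injured array was below every sham array.

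Fdps, which makes farnesyl diphosphate, stood at 10.91, 10.64, 10.66 and 10.88 in VEH-Sham 1 to 4, 11.04 in VEH-Sham 5, and 9.51, 10.36, 10.53, 9.76 and 10.35 in VEH-HI 6 to 10. It fell by 0.73 (SE 0.15, limma adjusted p = 0.00353). Stard4, a carrier of cholesterol between membranes, stood at 8.33, 8.45, 8.54 and 8.25 in VEH-Sham 1 to 4, 8.43 in VEH-Sham 5, and 7.14, 7.85, 7.76, 7.47 and 7.80 in VEH-HI 6 to 10. It fell by 0.79 (SE 0.15, limma adjusted p = 0.00167). Against VEH-Sham 5 the 4 genes were at -0.66, -1.03, -0.94 and -0.83. Averaged over the 20 genes, the arrays stood at 9.12 to 9.20 in VEH-Sham 1 to 4, 9.39 in VEH-Sham 5, and 8.51, 8.84, 8.99, 8.53 and 8.87 in VEH-HI 6 to 10. VEH-HI 6 and 9 were thus the lowest arrays, VEH-HI 8 the injured array nearest the sham values, and VEH-Sham 5 the highest of all.

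**Figure D4:**
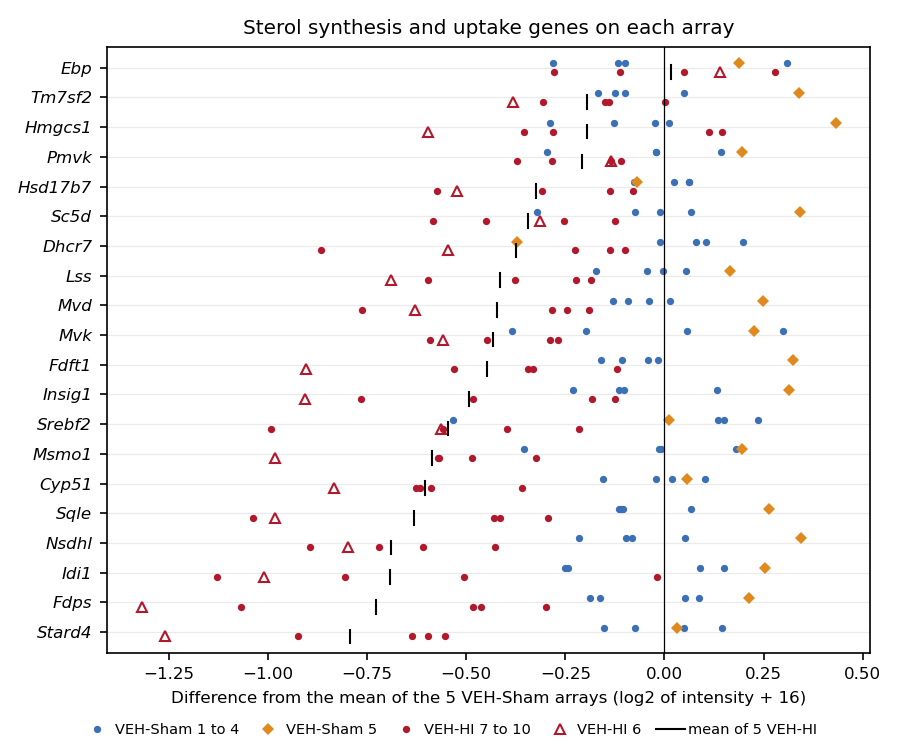
The 20 tested genes of sterol synthesis and uptake, with each array as its log2 difference from the mean of the 5 VEH-Sham arrays (horizontal axis). Blue circles are VEH-Sham 1 to 4, orange diamonds VEH-Sham 5, red circles VEH-HI 7 to 10, open triangles VEH-HI 6 and black ticks the VEH-HI mean. The VEH-HI mean is below 0 in 19 of the 20 genes.

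The sterol response element TCACNCCAC, a binding sequence of SREBP, was searched on both strands. Of 16 sterol genes with a promoter 1 held it, Hmgcs1, against 1.22% of all genes with a promoter and 1.05% of all 32851 promoters. None of 12 fatty acid synthesis genes with a promoter did. The Hmgcs1 stretch is shown because it was the single match, from RefSeq on GRCm38.p6 at chr13:119690188-119690247, plus strand, with the element in capitals and its first base 137 bases before the start.
Hmgcs1: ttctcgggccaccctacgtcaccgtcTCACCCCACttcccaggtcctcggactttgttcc
Hmgcs1, which makes the precursor of mevalonate, did not pass itself (-0.20, limma adjusted p = 0.294), and it was at -0.63 against VEH-Sham 5.

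Other lipid genes divided. Of 15 fatty acid synthesis genes 5 fell and 2 rose (median -0.11, and -0.23 against VEH-Sham 5 alone), and 4 of the falls and 0 of the rises were clear of VEH-Sham 5. The calls were 33.3% lower and 13.3% higher, against 11.5% and 11.9% over all tested genes. The median of the list was -0.18 after quantile normalization. With equal array medians it was 0.14, or -0.05 relative to the median of all tested probe sets. Elovl6, a fatty acid elongase, stood at -0.55 and -0.40 against all VEH-Sham and VEH-Sham 5. The acyl-CoA synthetases Acsl4 and Acsl3 stood at -0.54 and -0.20 and at -0.62 and -0.89, and Acly, which supplies cytosolic acetyl-CoA, at -0.49 and -0.50. All 4 fell by limma (adjusted p 0.00191 to 0.00423), but 1 of the 2 other probe sets of Acsl4 went the other way. Lipid storage and export went the other way, with 7 of 16 genes higher and 0 lower (median 0.26, and 0.14 against VEH-Sham 5 alone) and 5 of the 7 clear of VEH-Sham 5. Beside Plin2, Abca1, the pump that loads cholesterol onto apolipoproteins, rose by 0.78 (SE 0.13, limma adjusted p = 0.000957), or 0.86 against VEH-Sham 5. Apod, a lipid carrier of glia, rose by 1.11 (SE 0.21, limma adjusted p = 0.0019), or 0.81 against VEH-Sham 5. The droplet protein gene Plin3 passed at 1.08, but was 0.19 above VEH-Sham 5.

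Genes that reshape the actin skeleton rose in number. Of 29 tested 17 rose and 0 fell (median 0.39, and 0.28 against VEH-Sham 5 alone), against 11.9% of all genes, and 10 of the 17 were clear of VEH-Sham 5. Without VEH-HI 6 or VEH-Sham 3, 11 rose, and without VEH-Sham 4, 10. Pdlim4, an actin-associated LIM protein, went from 6.15 ± 0.75 to 8.23 ± 0.30 (SD, n = 5 each), and its rise of 2.08 (SE 0.27, limma adjusted p = 0.000144) was 0.96 against VEH-Sham 5. Cnn3, a calponin that binds actin, stood at 10.21, 10.71, 10.29 and 10.01 in VEH-Sham 1 to 4, 10.74 in VEH-Sham 5, and 11.72, 11.43, 11.21, 11.29 and 11.00 in VEH-HI 6 to 10. It rose by 0.94 (SE 0.15, limma adjusted p = 0.000837), without overlap, and all 5 other probe sets shared its direction. Lcp1, the plastin of blood cells and microglia, rose by 0.87 (SE 0.19, limma adjusted p = 0.00477). Both were 0.59 above VEH-Sham 5. Of 13 annexins and S100 proteins 8 rose and 0 fell (median 0.54, and 0.32 against VEH-Sham 5 alone), and 4 were clear of VEH-Sham 5. S100a10, the partner of annexin A2, rose by 0.54 (SE 0.11, limma adjusted p = 0.00229), or 0.77 against VEH-Sham 5. However, 1 of its 2 other probe sets went the other way, and its call was lost with the mean of its probe sets. Anxa1, which dampens leukocyte entry, rose by 1.05 (SE 0.21, limma adjusted p = 0.00274) with VEH-Sham 5 inside the injured range (0.78).

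Matrix genes rose in part. Of 24 integrins, CD44 and matrix genes 6 rose and 2 fell (median 0.14, and 0.24 against VEH-Sham 5 alone), and all 6 rises were clear of VEH-Sham 5. Fn1, the matrix protein fibronectin, stood at 8.08, 7.79, 7.74 and 7.80 in VEH-Sham 1 to 4, 8.24 in VEH-Sham 5, and 9.60, 9.18, 9.21, 8.69 and 8.86 in VEH-HI 6 to 10. It rose by 1.18 (SE 0.16, limma adjusted p = 0.000154), or 0.86 against VEH-Sham 5. Cd44, the receptor for hyaluronan, rose by 1.11 (SE 0.21, limma adjusted p = 0.00182), or 1.65 against VEH-Sham 5. Col4a1, a collagen of basement membranes, rose by 1.06 (SE 0.18, limma adjusted p = 0.00109), or 0.74. Of 16 matrix protease and plasminogen genes 6 rose and 0 fell (median 0.29, and 0.24 against VEH-Sham 5 alone), with 4 clear of VEH-Sham 5. Timp1, an inhibitor of metalloproteases, led with 1.72 and 1.75 against all VEH-Sham and VEH-Sham 5. The cathepsin gene Ctsb was at 0.93 and 0.46, Ctsl at 0.68 and 0.21 and Plat, the tissue plasminogen activator, at 0.53 and 0.31.

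Lysosome and phagocytosis genes rose in most of their number. Of 17 tested 13 rose and 1 fell (median 0.49, and 0.40 against VEH-Sham 5 alone), and 10 of the 13 and the 1 fall were clear of VEH-Sham 5. Without VEH-HI 6, VEH-Sham 3 or VEH-Sham 4, 8 rose. Gusb, which cleaves glucuronides in the lysosome, stood at 6.57, 6.96, 6.79 and 7.08 in VEH-Sham 1 to 4, 6.82 in VEH-Sham 5, and 7.81, 7.91, 7.16, 7.43 and 7.62 in VEH-HI 6 to 10. It rose by 0.74 (SE 0.14, limma adjusted p = 0.00228), or 0.76 against VEH-Sham 5, without overlap. Cd9, a tetraspanin, rose by 0.85 (SE 0.15, limma adjusted p = 0.00116), or 0.55 against VEH-Sham 5. Lamp2, a lysosome membrane protein, rose by 0.95 (SE 0.18, limma adjusted p = 0.00232), and was 0.38 above VEH-Sham 5, which lay inside the injured range. The 1 fall was Npc1, which exports cholesterol from lysosomes (-0.58 and -0.54, limma adjusted p = 0.00665), named after its value was seen.

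Bright housekeeping groups had many rises against all VEH-Sham arrays and small differences from VEH-Sham 5. Of 24 respiratory chain genes 10 rose and 0 fell (median 0.28, and 0.03 against VEH-Sham 5 alone), with 3 clear of VEH-Sham 5. After quantile normalization 3 rose and 1 fell. Leaving out 1 array moved the 10 rises to 5 (without VEH-HI 9, VEH-Sham 2 or VEH-Sham 4), 6 (VEH-HI 10 or VEH-Sham 3) or 18 (VEH-Sham 5). Of 19 proteasome genes 13 rose and 0 fell (median 0.39, and 0.15 against VEH-Sham 5 alone), with 4 clear. Of 13 ribosomal protein genes 11 rose and 0 fell (median 0.41, and 0.19 against VEH-Sham 5 alone), with 5 clear. Of 21 glycolysis genes 6 rose and 1 fell (median 0.14, and -0.0047 against VEH-Sham 5 alone), with 3 clear, and without VEH-Sham 4, 2 rose. Against VEH-Sham 1 to 4 the medians of these lists, in the same order, were 0.36, 0.50, 0.45 and 0.18. The median of the brightest decile against those 4 arrays was 0.16, and its part in the lists was not tested. In deciles 9 and 10 of all tested genes 20.0% and 28.8% were called higher. The shares of rises were 28.6% for glycolysis, at that background, 41.7% for the respiratory chain, 68.4% for the proteasome and 84.6% for ribosomal proteins.

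Their members show the same split. Rps3 of the small ribosomal subunit was at 0.66 and 0.26 against all VEH-Sham and VEH-Sham 5, Rps10 at 0.47 and 0.28, Rpl19 at 0.49 and 0.24 and Rps19 at 0.53 and 0.14. Of the catalytic-core genes of the proteasome, Psmb3 was at 0.68 and 0.42, Psmb6 at 0.78 and 0.08 and Psmb2 at 0.55 and 0.18, and the cap subunit gene Psmd4 was at 0.54 and 0.09. The respiratory genes Atp5o, Ndufa1, Cox6c and Cox4i1 were at 0.43 and 0.17, 0.43 and 0.14, 0.32 and 0.13, and 0.32 and 0.13. Each of these 12 passed limma, and each was smaller against VEH-Sham 5. The other probe set of Atp5o and that of Cox6c did not share the direction. Of the glycolysis genes, Aldoc was at 0.41 and 0.08, the lactate dehydrogenase gene Ldhb at 0.46 and -0.0002, and Ldha at 0.34 and -0.06, a call lost without VEH-Sham 4. The other probe set of Aldoc did not share its direction. Pfkl, the liver-type phosphofructokinase, fell (-0.38 and -0.23).

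Of 18 glutathione, thioredoxin and metal-binding genes 9 rose and 1 fell, with 7 rises clear of VEH-Sham 5, and Mt1, Mt2 and Mt3 were among them. Of the 15 others 6 rose and 1 fell, 4 rises were clear, and their median of 0.26 came to 0.01 against VEH-Sham 5. Gpx1, a peroxidase, rose by 0.78 (SE 0.14, limma adjusted p = 0.00122), or 0.30 against VEH-Sham 5. Of 13 iron and heme genes 3 rose and 1 fell (median 0.02, and 0.15 against VEH-Sham 5 alone). Blvrb, a biliverdin reductase, rose by 1.52 (SE 0.29, limma adjusted p = 0.00223) but by 0.31 against VEH-Sham 5, and Cp, the copper-bound ferroxidase ceruloplasmin, by 1.11 and 0.49. The call of Cp was lost with the mean of its probe sets. Fth1, the ferritin heavy chain, was at 0.35 and 0.23, and Hamp, the iron hormone hepcidin, fell (-0.77 and -0.45). Of 14 polyamine, purine and arginine genes 2 rose and 1 fell, near the background. Sat1, which acetylates polyamines for breakdown, stood at 9.53, 9.50, 9.54 and 9.63 in VEH-Sham 1 to 4, 9.39 in VEH-Sham 5, and 10.48, 10.08, 10.17, 10.25 and 10.06 in VEH-HI 6 to 10. It rose by 0.69 (SE 0.12, limma adjusted p = 0.00119), or 0.82 against VEH-Sham 5. Pnp, a purine phosphorylase, was at 0.30 and 0.23 and lost its call without any of 6 arrays, VEH-HI 6 among them, and Ass1, which makes argininosuccinate, fell by 1.28 but was at -0.28 against VEH-Sham 5.

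Transcription regulators rose in part. Of 24 inducible regulators 7 rose and 2 fell (median 0.10, and 0.19 against VEH-Sham 5 alone), with 5 rises and 0 falls clear of VEH-Sham 5. The 7 rises were 29.2% of the list, against 11.9% of all tested genes, and the 2 falls 8.3%, against 11.5%. The falls were 1 without VEH-HI 10, VEH-Sham 1 or VEH-Sham 3. Beside Cebpd, Stat3 rose by 0.73 (SE 0.18, limma adjusted p = 0.00822), or 0.83 against VEH-Sham 5. Myc rose by 0.66 (SE 0.18, limma adjusted p = 0.0131) but was at -0.03 against VEH-Sham 5, and Runx1, a blood and microglial factor, fell by 1.34, or -0.47 against VEH-Sham 5. Of 17 AP-1 and activity-regulated genes 5 rose and 1 fell, or 29.4% and 5.9% (median 0.17, and 0.16 against VEH-Sham 5 alone). Without VEH-HI 6 or VEH-HI 8, 2 rose, and without VEH-HI 7, VEH-Sham 1, VEH-Sham 3 or VEH-Sham 4, 3. Junb rose by 0.83 (SE 0.24, limma adjusted p = 0.0205), or 0.89 against VEH-Sham 5, and lost its call without VEH-HI 6, VEH-HI 8, VEH-Sham 1 or VEH-Sham 4. Egr3, an activity-dependent factor of neurons, went the other way, at -0.79 and -0.43 (limma adjusted p = 0.000915), and its other probe set did not share the direction. Of 14 growth factor feedback genes 3 rose and 1 fell, or 21.4% and 7.1% (median 0.22, and 0.18 against VEH-Sham 5 alone). Without VEH-HI 6, VEH-HI 8, VEH-Sham 1, VEH-Sham 3 or VEH-Sham 4, 1 rose. Spry2, an inhibitor of receptor tyrosine kinase signalling, was at 0.26 and 0.34, Errfi1, an inhibitor of the EGF receptor, at 0.35 and 0.02 and the adaptor gene Sh2b3 at -0.48 and -0.10. These 3 lost their calls without any of 9, 7 and 7 of the 10 arrays. The other probe set of Spry2 and that of Errfi1 did not share the direction.

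Of 20 neuron injury and regeneration genes 3 rose and 1 fell (median 0.25, and 0.15 against VEH-Sham 5 alone), and 6 rose without VEH-HI 10 or VEH-Sham 5. Tubb6, a beta-tubulin, stood at 6.62, 6.40, 6.50 and 6.33 in VEH-Sham 1 to 4, 6.86 in VEH-Sham 5, and 8.00, 7.82, 7.79, 7.68 and 7.58 in VEH-HI 6 to 10. It rose by 1.23 (SE 0.14, limma adjusted p = 3.1e-05), or 0.91 against VEH-Sham 5, without overlap, but its other probe set did not share the direction. Gadd45b, a stress sensor, was at the threshold (0.82, SE 0.29, limma adjusted p = 0.0499, and 0.69 against VEH-Sham 5, which lay inside the VEH-HI range). It lost its call without VEH-HI 6, 7 or 8, without any of VEH-Sham 1 to 4 and with the mean of its probe sets, and 1 of its 2 other probe sets went the other way. Sprr1a passed at -0.66 and was at 0.01 against VEH-Sham 5.

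Signalling families gave few calls. Of 19 TGF-beta, BMP and Id genes 3 rose and 1 fell (median 0.19, and 0.20 against VEH-Sham 5 alone), and all 3 rises were clear of VEH-Sham 5. Id3, an inhibitor of basic helix-loop-helix factors, stood at 8.97, 8.82, 8.95 and 8.75 in VEH-Sham 1 to 4, 9.14 in VEH-Sham 5, and 9.91, 9.78, 9.47, 9.60 and 9.57 in VEH-HI 6 to 10. It rose by 0.74 (SE 0.10, limma adjusted p = 0.000294), or 0.53 against VEH-Sham 5, without overlap. Id1 rose by 0.62 (SE 0.13, limma adjusted p = 0.00365) and Nbl1, a secreted BMP antagonist, by 0.67 (SE 0.22, limma adjusted p = 0.0331). They were 0.53 and 0.80 above VEH-Sham 5, and Nbl1 lost its call without any of 6 arrays, VEH-HI 6 among them. Of 23 Wnt and Notch genes 2 rose and 1 fell, and the list's median was -0.14 but 0.06 against VEH-Sham 5. With equal array medians it was 0.11, or -0.08 relative to the median of all tested probe sets. Dkk3, a secreted Dickkopf protein, was at 0.53 and 0.31 and Notch2 at 0.41 and 0.33, although the other probe set of Notch2 did not share its direction. Dll1, a Notch ligand, was at -0.37 and -0.38, a call lost without any of 5 arrays, VEH-HI 6 among them.

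Of 23 growth factors and receptors 5 rose and 2 fell (median 0.12, and 0.03 against VEH-Sham 5 alone), and 5 fell without VEH-Sham 5. The calls were 21.7% higher and 8.7% lower, against 11.9% and 11.5% over all tested genes. Vegfa, the main angiogenic factor, stood at 7.62, 7.89, 7.83 and 7.71 in VEH-Sham 1 to 4, 7.42 in VEH-Sham 5, and 6.95, 6.99, 6.90, 6.64 and 6.73 in VEH-HI 6 to 10. It fell by 0.85 (SE 0.12, limma adjusted p = 0.000227), and was at -0.58 against VEH-Sham 5, but its other probe set did not share the direction. Angpt1, which steadies vessels through TIE2, rose by 0.87 (SE 0.16, limma adjusted p = 0.00191), or 0.57 against VEH-Sham 5. Fgf9 fell by 0.93, or -0.12 against VEH-Sham 5, and Igfbp2 was at 0.51 and 0.12.

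Of 14 glucocorticoid-responsive genes 5 rose and 0 fell (median 0.32, and 0.24 against VEH-Sham 5 alone), with 4 clear of VEH-Sham 5. Without VEH-HI 6, VEH-HI 8, VEH-Sham 1 or VEH-Sham 4, 3 rose. Mt2 and Cdkn1a were among the 5. Nfkbia, the NF-kB inhibitor, was at 0.46 and 0.34, a call lost without VEH-Sham 4, and Errfi1 is given above. Of 19 clock genes 1 rose and 2 fell, or 5.3% and 10.5%, against 11.9% and 11.5% over all tested genes. Their median was 0.105, and 0.16 against VEH-Sham 5 alone, where 15 of the 19 were above 0. The 1 rise was Bhlhe40, a clock repressor also induced by hypoxia, which stood at 6.98, 5.89, 6.48 and 6.12 in VEH-Sham 1 to 4, 6.65 in VEH-Sham 5, and 7.57, 7.60, 7.62, 7.19 and 7.34 in VEH-HI 6 to 10. It rose by 1.04 (SE 0.17, limma adjusted p = 0.000742), or 0.81 against VEH-Sham 5. Hlf and Npas2 fell (-0.42 and -0.17 and, in turn, -0.55 and -0.16), and Npas2 lost its call without any of 7 arrays. The E-box CACGTG was in 5 of 17 clock promoters (Per1, Cry1, Tef, Bhlhe41 and Ciart), or 29.4% of these genes, against 6.86% of all genes with a promoter.

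The protein-folding and death lists had medians of 0.01 to 0.03 against VEH-Sham 5. Of 17 heat shock and chaperone genes 4 rose and 2 fell (median 0.04, and 0.02 against VEH-Sham 5 alone), and without VEH-Sham 3, 1 rose. The mitochondrial Hspe1 was at 0.51 and 0.11, the chaperonin genes Cct3 and Cct2 at 0.36 and 0.22 and at 0.30 and 0.09, and Hspa4l at -0.34 and -0.25. Of 22 unfolded protein and amino acid stress genes 5 rose and 1 fell (median 0.11, and 0.03 against VEH-Sham 5 alone), and 0 were clear of VEH-Sham 5. The 5 rises became 1 to 3 without any 1 array but VEH-Sham 5, and 2 without VEH-HI 6. Phgdh and Psat1 of serine synthesis were at 0.62 and 0.15 and at 0.30 and 0.16, and Asns, asparagine synthetase, at 0.30 and 0.03. Atf4, the regulator of that group, was at 0.31 and 0.12. Psat1, Asns and Atf4 each lost their call without any of 6, 6 and 8 arrays. Of 18 p53 target and cell death genes 5 rose and 2 fell (median 0.12, and 0.01 against VEH-Sham 5 alone), and without VEH-HI 6 or VEH-Sham 1, 3 rose. The calls were 27.8% higher and 11.1% lower, against 11.9% and 11.5% over all tested genes. Bbc3, the pro-apoptotic PUMA, was at 0.55 and 0.55, Mcl1, an anti-apoptotic BCL2 relative, at 0.30 and 0.14, the initiator caspase gene Casp9 at -0.66 and -0.43 and Casp6 at 1.04 and -0.02. Of 19 cell cycle and replication genes 4 rose and 0 fell (median 0.12, and 0.13 against VEH-Sham 5 alone). Cdkn1a, the p21 inhibitor of division, rose by 0.63 (SE 0.11, limma adjusted p = 0.00116), or 0.39 against VEH-Sham 5, and the replication genes Mcm5 and Pcna were at 0.86 and 0.49 and at 0.48 and 0.22.

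Among neuronal lists, those of ion channels and of transmitter receptors had the largest shares of falls. Of 22 potassium, sodium and calcium channel genes 11 fell and 0 rose (median -0.36, and -0.17 against VEH-Sham 5 alone), and 4 of the 11 were clear of VEH-Sham 5. Of 18 glutamate and GABA receptor genes 8 fell and 0 rose (median -0.37, and -0.22 against VEH-Sham 5 alone), with 3 clear. Without VEH-HI 6 the falls were 4 and 5. Channel falls were also 4 without VEH-Sham 3, 6 without VEH-Sham 1 or 4, and 7 without VEH-HI 7 or VEH-Sham 2. With equal array medians 1 channel gene and 3 receptor genes fell while 2 of each list rose. The list medians were then -0.11 and -0.12, or -0.29 and -0.31 relative to the median of all tested probe sets. Kcnab1, an auxiliary potassium channel subunit, stood at 8.95, 8.94, 8.99 and 9.25 in VEH-Sham 1 to 4, 8.37 in VEH-Sham 5, and 7.72, 8.10, 8.13, 8.19 and 8.17 in VEH-HI 6 to 10. It fell by 0.84 (SE 0.13, limma adjusted p = 0.00074), and was at -0.31 against VEH-Sham 5. Kcna4, a fast-inactivating potassium channel, was at -0.60 and -0.70, Kcnip2 at -0.47 and -0.34 and Cacna1a, the P/Q calcium channel, at -0.69 and -0.13, a call lost without VEH-HI 6 or VEH-Sham 4.

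Gabra5, the alpha-5 subunit of GABA-A receptors in hippocampus and cortex, stood at 10.31, 10.17, 10.30 and 10.41 in VEH-Sham 1 to 4, 10.24 in VEH-Sham 5, and 9.15, 9.50, 9.77, 9.90 and 9.90 in VEH-HI 6 to 10. It fell by 0.64 (SE 0.12, limma adjusted p = 0.00225) and was at -0.60 against VEH-Sham 5, without overlap. Gabra2 was at -0.80 and -0.37, and the AMPA receptor genes Gria3 and Gria2 were at -0.69 and -0.42 and at -0.46 and -0.13. In those 3 VEH-Sham 5 lay inside the injured range.

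Of 12 striatal projection neuron genes 5 fell and 0 rose (median -0.30, and -0.20 against VEH-Sham 5 alone), with 3 clear of VEH-Sham 5, and there were 2 falls without VEH-HI 6, VEH-HI 7, VEH-Sham 1 or VEH-Sham 4 and 3 without VEH-HI 9, VEH-Sham 2 or VEH-Sham 3. Pde10a, the striatal phosphodiesterase, stood at 10.66, 10.51, 10.02 and 10.67 in VEH-Sham 1 to 4, 9.73 in VEH-Sham 5, and 8.91, 9.69, 9.45, 9.41 and 9.30 in VEH-HI 6 to 10. It fell by 0.97 (SE 0.16, limma adjusted p = 0.00098), and was at -0.37 against VEH-Sham 5. Ppp1r1b, the dopamine-regulated phosphatase inhibitor DARPP-32, was at -0.65 and -0.30. Of 11 interneuron and calcium-binding genes 3 fell and 1 rose (median -0.19, and -0.20 against VEH-Sham 5 alone), all 3 falls clear, and 0 fell without VEH-Sham 1. With equal array medians the median was 0.05, or -0.13 relative to the median of all tested probe sets. The GABA-synthesising Gad1 and Gad2 were at -0.28 and -0.18 and at -0.42 and -0.44, the calcium sensor gene Hpca at -0.33 and -0.33, and Reln at 0.36 and -0.06. Each of these 4 lost its call without 1 or more single arrays, Hpca and Reln without VEH-HI 6. The other probe set of Gad1 did not share its direction.

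Other neuronal lists had shares of calls at or under the background. Of 21 synaptic vesicle and scaffold genes 2 fell and 0 rose (median -0.12, and -0.22 against VEH-Sham 5 alone), neither clear of VEH-Sham 5: Slc17a7, the vesicular glutamate transporter of cortex, at -0.59 and -0.47 and Nlgn1 at -0.39 and -0.21. Without VEH-HI 6 or VEH-Sham 1 neither passed. Of the 21 genes 2 had a difference above 0 against VEH-Sham 5. After quantile normalization 5 fell and 0 rose, whereas with equal array medians 0 fell and 3 rose. Of 20 neuropeptide genes 1 fell and 0 rose, and that gene, Tac1, was at -0.43 and 0.17, a call lost without VEH-Sham 1, 3 or 4. Of 15 neuroblast and progenitor genes 1 fell, Neurod2 (-0.50 and -0.25). Of 25 axon guidance genes 3 fell and 1 rose (median -0.16, and -0.10 against VEH-Sham 5 alone), and the ephrin gene Efnb1 was at -0.55 and -0.17 and its receptor family member Epha7 at -0.50 and -0.28. Without VEH-Sham 5, 5 fell. Of 12 ion pump and chloride transport genes 1 rose, Atp1b2, a sodium pump subunit of glia (0.37 and 0.23), a call lost without any of 6 arrays, VEH-HI 6 among them. The medians of these last 4 lists, in the order neuropeptides, neuroblasts, axon guidance and ion pumps, were -0.02, -0.07, -0.16 and -0.03, and -0.03, -0.07, -0.10 and -0.13 against VEH-Sham 5. With equal array medians and relative to the median of all tested probe sets they were 0.04, -0.01, -0.10 and 0.03.

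Markers of glia and vessels moved unevenly. Of 17 astrocyte genes 7 rose and 0 fell (median 0.33, and 0.14 against VEH-Sham 5 alone), with 4 clear of VEH-Sham 5. The 7 rises were 41.2% of the list, against 11.9% of all tested genes. The mean level of the list, 9.55, lies in decile 9, where 20.0% of genes were called higher. The intermediate filament gene Vim stood at 10.58, 10.70, 10.66 and 10.51 in VEH-Sham 1 to 4, 10.57 in VEH-Sham 5, and 12.32, 11.92, 11.73, 11.61 and 11.59 in VEH-HI 6 to 10. It rose by 1.23 (SE 0.14, limma adjusted p = 3.52e-05), or 1.27 against VEH-Sham 5. Gfap was at 1.32 and 1.17, Mlc1, a membrane protein of astrocyte endfeet, at 0.51 and 0.14, and Aldh1l1, an enzyme of folate metabolism, at 0.83 and 0.40.

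Pericyte, meningeal and choroid plexus markers rose in 7 of 15 and fell in 0 (median 0.35, and 0.21 against VEH-Sham 5 alone), with 5 clear of VEH-Sham 5. Their mean level ran from 7.99 to 8.15 in VEH-Sham 1 to 4, was 8.27 in VEH-Sham 5 and ran from 8.29 to 8.75 in VEH-HI. Col3a1, a fibroblast collagen, stood at 8.39, 8.50, 8.49 and 8.39 in VEH-Sham 1 to 4, 8.77 in VEH-Sham 5, and 9.66, 9.44, 9.24, 9.21 and 8.94 in VEH-HI 6 to 10. It rose by 0.79 (SE 0.11, limma adjusted p = 0.000311), or 0.53 against VEH-Sham 5. Tagln of smooth muscle was at 1.02 and 0.92, Aldh1a2, the retinoic acid enzyme of meninges, at 0.92 and 0.64, and Ptgds, a prostaglandin synthase of meninges, at 0.58 and 0.12. These markers moved with the matrix, actin and S100 rises given above, and their part in those rises was not tested.

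Of 17 endothelial and blood-brain barrier genes 3 rose and 1 fell (median 0.08, and 0.02 against VEH-Sham 5 alone), and 5 rose without VEH-HI 10. Icam1, an adhesion molecule for leukocytes, was at 1.45 and 1.25, Pecam1 at 1.40 and 0.01, Vcam1 at 0.51 and -0.11 and the VEGF receptor gene Flt1 at -0.52 and -0.33. Vcam1 and Flt1 lost their calls without any of 5 and 7 arrays. Of 12 myelin and oligodendrocyte genes 1 fell and 0 rose (median -0.03, and -0.02 against VEH-Sham 5 alone), Mobp, a myelin protein, at -0.85 and -0.79. VEH-Sham 5 lay inside the injured range, and the call was lost without any of 5 arrays.

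Nuclear housekeeping lists gave few calls. Of 20 splicing factors 1 rose and 1 fell (median 0.03, and 0.0033 against VEH-Sham 5 alone), with Hnrnpc at 0.28 and 0.25 and Tra2b at -0.34 and -0.18. Of 18 chromatin and histone genes 3 rose and 1 fell, or 16.7% and 5.6% (median 0.09, and 0.06 against VEH-Sham 5 alone). Macroh2a1, a histone variant, was at 0.66 and 0.22, the demethylase gene Kdm6b at 0.65 and 0.23, Hmgn1 at 0.34 and 0.25 and Hdac9 at -0.50 and 0.30. Without VEH-Sham 5, 3 splicing factors rose and 3 fell, and 5 chromatin genes rose. Hdac9 lost its call without any of 8 arrays.

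**Figure D5:**
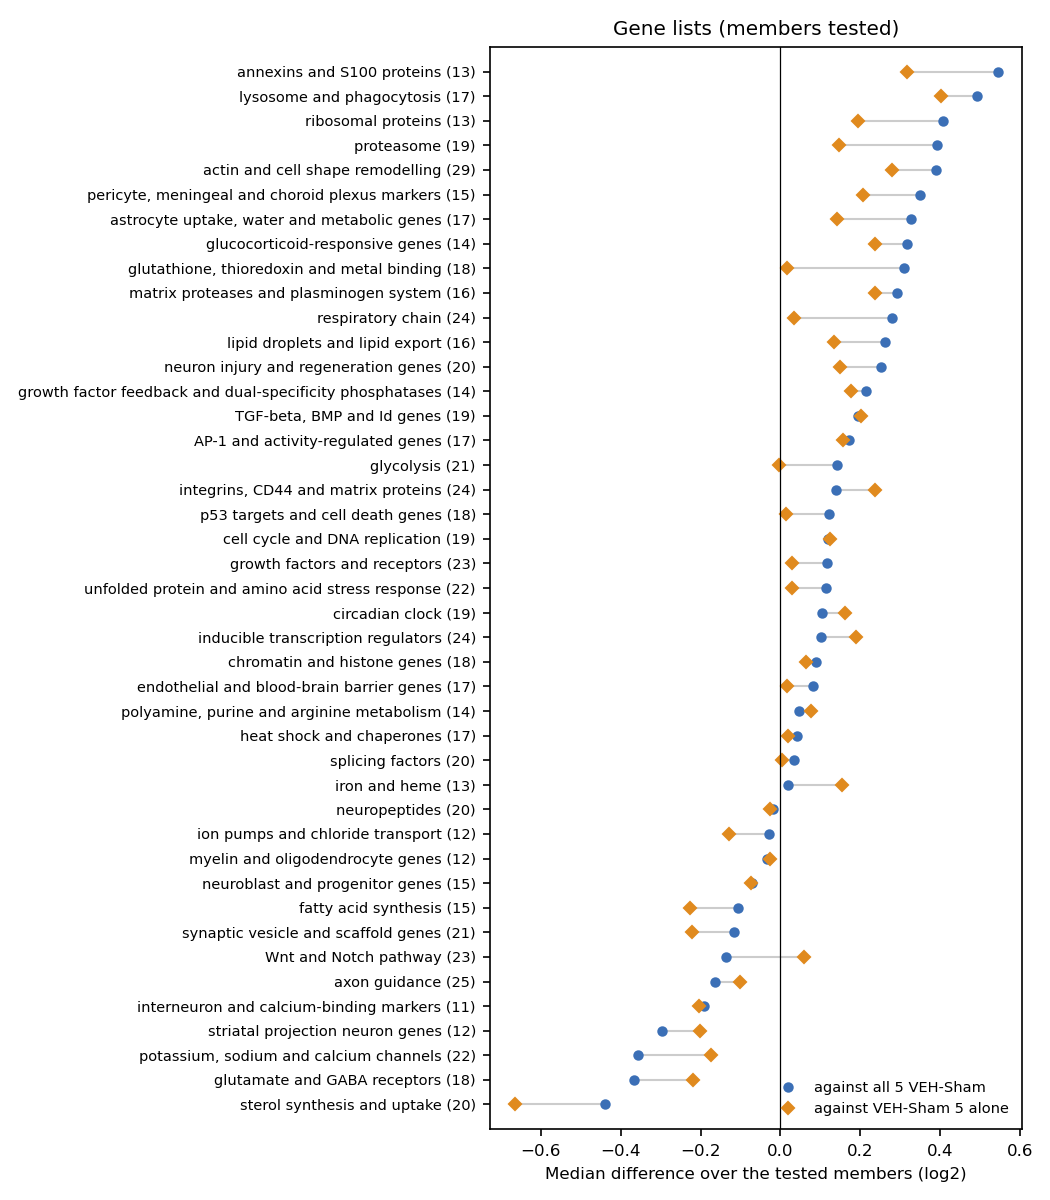
Median log2 difference over the tested members of each list (horizontal axis), against all 5 VEH-Sham arrays (blue circles) and against VEH-Sham 5 alone (orange diamonds), with the number of members in brackets. Sterol synthesis lies lowest under both controls, while the respiratory chain moves from 0.28 to 0.03.

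A last set of calls had VEH-Sham 5 inside the VEH-HI range. Among such genes the rule took the largest differences. Clec16a, a regulator of mitochondrial turnover, stood at 4.57, 4.74, 4.47 and 4.88 in VEH-Sham 1 to 4, 7.23 in VEH-Sham 5, and 7.12, 7.29, 7.43, 6.77 and 7.21 in VEH-HI 6 to 10. It passed at 1.99 (SE 0.34, limma adjusted p = 0.00114), while the difference from VEH-Sham 5 was -0.06. Igdcc3, a surface protein of the immunoglobulin family, stood at 7.66, 7.87, 7.37 and 7.41 in VEH-Sham 1 to 4, 5.47 in VEH-Sham 5, and 5.50, 5.27, 5.54, 5.69 and 5.40 in VEH-HI 6 to 10. It passed at -1.68 (SE 0.31, limma adjusted p = 0.00156), and VEH-Sham 5 differed from the VEH-HI mean by 0.01. In both genes VEH-Sham 5 sat with the injured arrays.

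Bcas2, a spliceosome component, was at -1.57 and 0.17, with its other probe set going the other way, and Ighg3, an immunoglobulin heavy chain, was at -1.72 and -0.05. Bpifb1, a secreted lipid-binding protein, was at -1.77 and -0.53 and Cyp1b1, an oxidase of aromatic compounds in vessel cells, at 1.55 and 0.50. S100a9, a neutrophil protein, was at 2.45 and 1.74, and Fos also falls under this rule. Among these 8 genes S100a9, Fos, Cyp1b1 and Bpifb1 kept their direction by 0.50 or more against VEH-Sham 5, and the other 4 did not.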

How the data were processed

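RNA was hybridised to Affymetrix mouse arrays. The authors deposited a linear intensity for each probe set on each array, and the software behind it is not stated in the sources used here. Each array's intensities average 150.0 once the top and bottom 2% are set aside, as found from the values. Of 45101 probe sets, 64 controls were left out. Of the remaining 45037, 34945 had 1 gene symbol, 932 several and 9160 none in the platform annotation, and only those with 1 were named. All 15 columns were matched by name and 0 were left over.

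Intensities were used as log2(intensity + 16), so differences of dim genes are understated. The brightest 60% of probe sets (27022) entered limma 3.58.1 (R 4.3.3) with 3 group means over 15 arrays, eBayes with trend and Benjamini-Hochberg adjustment, two-sided. The fit was tested on simulated data. The fit against VEH-Sham 5 alone used 4 group means and assumes that this single array varies like the others. Values come from 5 arrays a group, and that number limits their precision.

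The named genes were the 24 rises and 16 falls with the largest smaller-of-both differences, up to 4 members of each list with the smallest p, all sex-specific transcripts, and up to 4 rises and 4 falls with VEH-Sham 5 inside the VEH-HI range. Predicted genes were passed over throughout, and inflammatory genes among the 24 and 16. The 44 lists held 867 genes, of which 759 were tested, and 21 genes stood in more than 1 list. Members and lists were chosen with earlier results of these data known. Forebrain expresses many listed genes in several cell types. Alternatives were other pseudocounts, filters and scalings, robust eBayes, the mean of a gene's probe sets, the VEH arrays only, VEH-Sham 5 as control, and leaving out each array. Figures were drawn with matplotlib 3.10.9.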

Additional observations from a re-analysis of the deposited data

Results flagged for a closer look

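In 8 of 94 groups checked (47 genes in 2 groups of 5) the highest or lowest array stood apart from the other 4 of its group, by a gap over 0.71 of the group's range. Chance marks about 1 in 20 groups. VEH-Sham 5 was that array in 5 cases, all of them genes chosen because VEH-Sham 5 lay among the VEH-HI values, so this count follows from the choice. Clec16a was at 7.23 in VEH-Sham 5, against 4.47 to 4.88 in VEH-Sham 1 to 4. Bpifb1 was at 5.62 there (6.96 to 7.34 in the others), Ighg3 at 5.34 (7.25 to 7.65), Igdcc3 at 5.47 (7.37 to 7.87) and Bcas2 at 8.59 (10.51 to 10.95).

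The other 3 were VEH-HI arrays. Lama4, the vascular laminin chain, was at 7.09 in VEH-HI 6 against 6.25 to 6.44 in VEH-HI 7 to 10. Angptl1 was at 4.14 in VEH-HI 8 against 5.19 to 5.601 in its companions, and Dnajc22 at 4.36 in VEH-HI 9 against 5.54 to 5.99.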

How the results depend on the processing

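With VEH-Sham 5 as the sole control, limma called 3 probe sets higher and 0 lower (1836 had an unadjusted p under 0.05). They gave 1 gene higher and 0 lower, and 1 higher and 0 lower clear of VEH-Sham 5. That fit has 1 control array. Of the 207 named genes 184 had a call in the main fit. Against VEH-Sham 5 alone 172 of these kept their direction and 12 changed sign: Ldhb (-0.0002), Ldha (-0.0612), Myc (-0.0349), Sprr1a (0.0105), Tac1 (0.17), Reln (-0.0554), Vcam1 (-0.11), Casp6 (-0.0244), Hdac9 (0.30), Clec16a (-0.061), Igdcc3 (0.0115) and Bcas2 (0.17). Changes of sign in genes without a call, such as Oxt (-0.35, and 0.21 against VEH-Sham 5), are not counted. Among called genes, averaging a gene's probe sets turned Atf4 (-0.0801) and Notch2 (-0.45), and 26 others lost their call. The brightest 40% of probe sets gave 1896 lower probe sets and 924 lower genes from fewer tests. Equal array medians gave 6614 higher and 1113 lower probe sets, 3834 and 432 genes, and 205 lower genes clear of VEH-Sham 5. Leaving out 1 array gave 1780 to 3802 higher and 2044 to 5807 lower probe sets, 1037 to 2239 higher and 877 to 2484 lower genes, and 588 to 853 and 425 to 673 clear of VEH-Sham 5. The lowest counts of lower genes came without VEH-Sham 3 and the highest without VEH-Sham 5, and the cause was not tested. Other pseudocounts, no filter, quantile normalization, robust eBayes, the VEH arrays only and the mean of probe sets kept the counts they gave within 1.5 times, and the mean of probe sets gave counts of genes only. No paired analysis was possible because the groups compared share fewer than 2 replicate numbers. The number of arrays, with 1 sham array resembling the injured arrays in median, limits every value.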
